A study of Homo sapiens with 47 samples.

Results

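The miR-15, miR-16, miR-195 and miR-424 family was described here in cultured prostate cancer cells through 10 mature microRNAs (miRNAs) picked by name. All 10 were present among the 1006 entries of the count table and all 10 passed the filter on low counts in both lines. They are hsa-miR-15a-5p, hsa-miR-15b-5p, hsa-miR-15b-3p, hsa-miR-16-5p, hsa-miR-195-5p, hsa-miR-195-3p, hsa-miR-497-5p, hsa-miR-424-5p, hsa-miR-424-3p and hsa-miR-503-5p, written below without the species prefix. miR-503 is the clustered neighbour of miR-424.

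The data are small RNA sequencing libraries of 2 human prostate cancer lines in culture, PC-3, derived from a bone metastasis, and 22Rv1, derived from a subline of the CWR22R xenograft. Exponentially growing cells were held for 24 h in a chamber at 1 of 6 O2 levels (hypoxia: 0%, 0.2% and 0.5%, then 1%, 2% and 5%), and each O2 level had its own control set in normoxia (95% air). All groups grew in the same RPMI-1640 medium with 10% fetal bovine serum. There were 12 hypoxia and 12 normoxia libraries of PC-3, and 12 hypoxia and 11 normoxia libraries of 22Rv1, because only 1 normoxia library of the 0.2% set of 22Rv1 was used here. The other groups had 2 libraries each, and as no source says whether these were separate cultures, the p-values measure the spread between the libraries, which may be technical.

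A miRNA guides the Argonaute protein to messenger RNAs mainly through its seed, the bases next to its 5′ end, and represses them. miRNAs of this family are known for repressing cell cycle and survival genes such as CCND1, CCNE1 and BCL2, and loss of the miR-15a and miR-16-1 genes is a frequent lesion of chronic lymphocytic leukaemia. Among the members, miR-424 has been reported to respond to low oxygen in human endothelial cells, where it represses CUL2, a scaffold of the complex that degrades hypoxia-inducible factor.

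The mature sequences show which members can read the same target sites. They are given 5′ to 3′ from RefSeq (GRCh38.p14), with the seed, bases 2 to 8, in capitals. The first 6 members below share 1 seed and the next differs from it at its last base.
miR-15a-5p: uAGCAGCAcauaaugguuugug
miR-15b-5p: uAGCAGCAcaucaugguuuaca
miR-16-5p: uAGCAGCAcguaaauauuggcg
miR-195-5p: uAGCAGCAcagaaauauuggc
miR-497-5p: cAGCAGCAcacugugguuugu
miR-424-5p: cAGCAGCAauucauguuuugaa
miR-503-5p: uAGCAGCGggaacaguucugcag
miR-195-3p: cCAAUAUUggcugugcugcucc
miR-16-2-3p: cCAAUAUUacugugcugcuuua
miR-424-3p: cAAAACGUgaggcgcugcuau
miR-15b-3p: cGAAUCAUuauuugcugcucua
The last 4 lines are arms from the other side of a hairpin, with seeds of their own. miR-16-2-3p is no member and is printed because it was the only other entry, among the 868 entries with a RefSeq sequence, whose seed equals that of a member, miR-195-3p. The pair share their first 8 bases. miR-16-5p and miR-195-5p are the closest relatives: 19 of 21 compared bases are identical, and counted from the 5′ end the differences from miR-16-5p to miR-195-5p are G10A and U11G. miR-15a-5p and miR-15b-5p share 18 of 22 bases, and miR-497-5p and miR-424-5p share 14 of 21.

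The members come from 4 clusters (hairpin positions from RefSeq on GRCh38.p14, whereas the submitters' notes name hg19 for their own mapping). MIR15A (chr13:50049119-50049201) and MIR16-1 (chr13:50048973-50049061) lie 57 bases apart on the minus strand within DLEU2, a long noncoding RNA gene. MIR15B (chr3:160404588-160404685) and MIR16-2 (chr3:160404745-160404825) lie 59 bases apart on the plus strand within SMC4, which encodes a condensin subunit. MIR16-1 and MIR16-2 yield the same miR-16-5p, so its reads cannot be assigned to either locus. MIR497 (chr17:7017911-7018022) and MIR195 (chr17:7017615-7017701) lie 209 bases apart on the minus strand in MIR497HG. MIR424 (chrX:134546614-134546711) and MIR503 (chrX:134546328-134546398) lie 215 bases apart on the minus strand, and MIR450B follows 6065 bases beyond MIR503.

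PC-3 libraries held 1742290 to 4327382 counts and 22Rv1 libraries 960421 to 3181344. Values are library-scaled counts (CPM, with TMM normalization, the trimmed mean of M values, over all libraries), with SD between libraries. The hypoxia marker miR-210-3p did not overlap between conditions, at 881 to 1241 CPM in hypoxia against 457 to 783 CPM in normoxia in PC-3, and 1389 to 2888 CPM in hypoxia against 800 to 1360 CPM in normoxia in 22Rv1. Of 4 epithelial marker miRNAs, miR-200b-3p and miR-205-5p were high in PC-3 and miR-200c-3p and miR-141-3p in 22Rv1. Of 7 stromal or smooth muscle markers, 6 were in the table. Their sum reached 1406 CPM (hypoxia) and 1478 CPM (normoxia) in the PC-3 libraries of replicate 1 of the 5% set, against medians of 39.9 CPM in PC-3 hypoxia and 28.2 CPM in PC-3 normoxia, nearly all of it miR-143-3p, while miR-145-5p stayed below 8 CPM. In 22Rv1 that sum was 54.3 to 533 CPM in hypoxia and 115 to 258 CPM in normoxia. A set of 3 22Rv1 libraries, hypoxia replicate 1 of the 0.5% set and both replicate 1 libraries of the 5% set, stood apart from the other 20 on the first principal component, and their member values are given below. They also held the extremes of the stromal sum in 22Rv1, 54.3 CPM in hypoxia of the 5% set, 533 CPM in hypoxia of the 0.5% set and 258 CPM in normoxia of the 5% set, against 115 to 197 CPM in the other 20.

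miR-16-5p carried most of the family's reads in both lines. In PC-3 it ranged from 22348 to 28054 CPM (median 26617) in hypoxia and from 21905 to 28484 CPM (median 25603) in normoxia. In 22Rv1 it ranged from 28481 to 43720 CPM (median 33284) in hypoxia and from 30819 to 42600 CPM (median 37378) in normoxia. Of the summed CPM of the 6 members with the shared seed, miR-16-5p made up 91.7% in hypoxia and 91.3% in normoxia in PC-3, and 89.6% in hypoxia and 90.1% in normoxia in 22Rv1. In PC-3 the sum was 28340 ± 1846 CPM in hypoxia (n = 12) and 27946 ± 1966 CPM in normoxia (n = 12). In 22Rv1 it was 37870 ± 5216 CPM in hypoxia (n = 12) and 41598 ± 4401 CPM in normoxia (n = 11). As plain shares of all counts, without TMM scaling, the sum averaged 2.42% in hypoxia and 2.44% in normoxia in PC-3, and 4.35% in hypoxia and 5.03% in normoxia in 22Rv1, so the gap between lines depends on the scaling.

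Behind miR-16-5p the order of members differed between the lines. In PC-3 normoxia miR-15b-5p followed at 1383 ± 152 CPM, then miR-15a-5p (444 ± 32.3 CPM), miR-424-5p (421 ± 34.6 CPM), miR-503-5p (338 ± 39.8 CPM), miR-424-3p (246 ± 34.4 CPM), miR-15b-3p (121.7 ± 20.3 CPM), miR-497-5p (100.4 ± 10.5 CPM), miR-195-5p (69.6 ± 8.50 CPM) and miR-195-3p (4.02 ± 1.53 CPM, n = 12 for all). In that order miR-15a-5p and miR-424-5p lay within their spread of each other, as did miR-15b-3p and miR-497-5p. In 22Rv1 normoxia miR-15b-5p (1248 ± 130 CPM), miR-497-5p (1240 ± 266 CPM) and miR-195-5p (1096 ± 224 CPM) lay within their spread, and miR-15a-5p (526 ± 99.3 CPM) was below them. miR-195-3p (126 ± 18.5 CPM) and miR-15b-3p (109 ± 14.4 CPM) were again within their spread of each other, and the X-linked members came last, with miR-503-5p at 43.1 ± 5.59 CPM, miR-424-5p at 30.1 ± 5.49 CPM and miR-424-3p at 24.6 ± 6.43 CPM (n = 11 for all), the last pair within their spread. Mature miRNAs have nearly the same length, so CPM needs no length scaling, but adapter ligation depends on sequence and the order is one of reads.

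**Figure D1:**
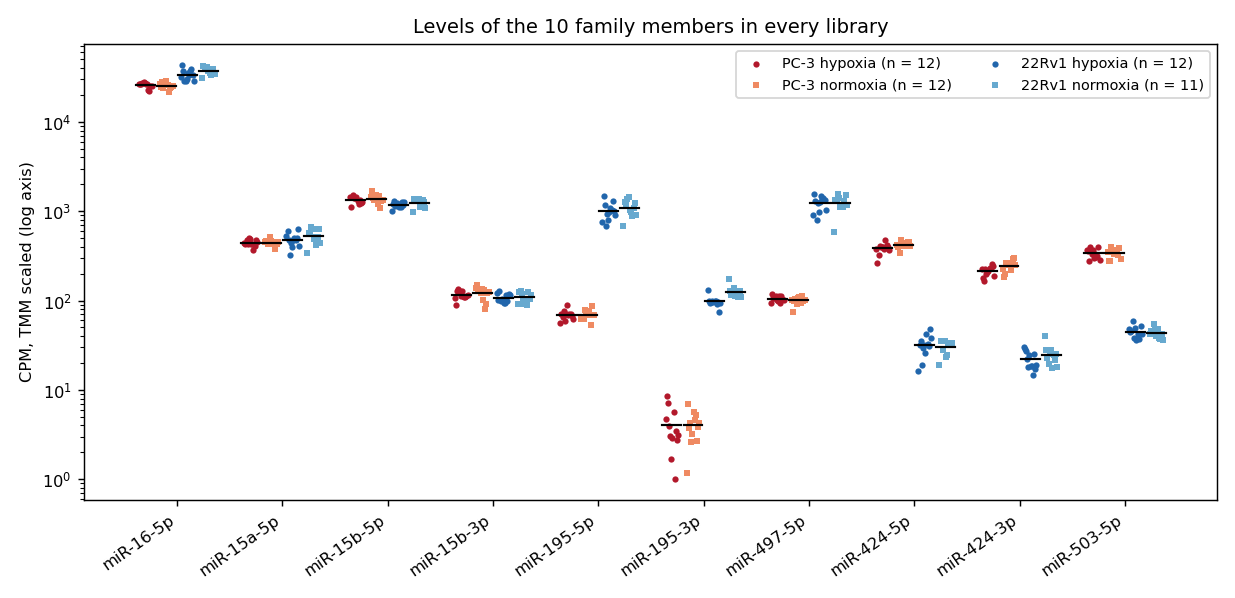
CPM (TMM scaled, log axis) of the 10 members in every library; each point is 1 library, black lines are means, and each member has PC-3 hypoxia, PC-3 normoxia, 22Rv1 hypoxia and 22Rv1 normoxia from left to right. The X-linked members (miR-424, miR-503) sit higher in PC-3, the chromosome 17 members (miR-195, miR-497) higher in 22Rv1, and hypoxia and normoxia points of 1 line overlap for nearly every member.

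The first comparison was PC-3 against 22Rv1 in normoxia, which sets the level on which hypoxia acts in each line. In this comparison the family split by locus, with members of the X cluster higher in PC-3 and members of the chromosome 17 cluster higher in 22Rv1. The call rule, here and below, was an adjusted p under 0.05 (Benjamini-Hochberg) in edgeR's quasi-likelihood test, here over 613 miRNAs. By that rule 4 members were higher and 5 lower in PC-3, and 1 was not called. Of all tested miRNAs 86.0% were called (39.6% higher, 46.3% lower), so the number of members called is close to the background. How many of all tested miRNAs had ranges without overlap between the lines was not counted, so non-overlap given below does not set members apart. The median log2 difference was -0.06 over the members and -0.15 over all tested. Bulk libraries give relative levels, so fewer cells with a miRNA and less of it per cell cannot be told apart. Each group is 1 cell line, so these values compare these 2 lines and no wider classes of tumour.

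miR-424-5p, which represses CUL2 in endothelial cells, ranged from 338 to 472 CPM (median 425) in PC-3 normoxia and from 19.0 to 35.3 CPM (median 32.2) in 22Rv1 normoxia. No PC-3 library came near the 22Rv1 range, and the fitted level was 13.9-fold higher in PC-3 (log2 3.79, SE 0.11, adjusted p = 1.31e-27, edgeR). The other arm, miR-424-3p, was higher by log2 3.34 (10.1-fold, adjusted p = 5.43e-24, edgeR), at 184 to 300.2 CPM in PC-3 and 17.8 to 40.5 CPM in 22Rv1. miR-503-5p, the cluster partner with the altered seed, ranged from 278 to 396 CPM in PC-3 and from 36.0 to 55.3 CPM in 22Rv1. It was 7.76-fold higher in PC-3 (log2 2.96, SE 0.10, adjusted p = 3.8e-26, edgeR), again without overlap.

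The rest of the X cluster, which lies downstream of MIR503, had the same direction. Of 12 listed neighbours and other arms, 7 passed the filter over both lines, and of these 5 were higher in PC-3, 1 was lower and 1 was not called. The 5 were all X-linked: miR-450b-5p (140.7 ± 13.4 CPM in PC-3 and 17.8 ± 4.67 CPM in 22Rv1, log2 2.96), miR-450a-5p (log2 2.88), miR-542-3p (143.3 ± 17.9 CPM in PC-3 and 25.1 ± 4.62 CPM in 22Rv1, log2 2.51), miR-542-5p (log2 2.19) and miR-503-3p (log2 1.98). miR-503-3p is the other arm of miR-503-5p and does not lie downstream of MIR503. It passed the filter within PC-3 alone, and the lower entry, miR-16-1-3p, within 22Rv1 alone, each the line where it was higher. Their calls are therefore not used as support. The X-linked entries that passed the filter within each line spanned 4.57-fold (miR-542-5p) to 13.9-fold (miR-424-5p).

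The chromosome 17 cluster had the opposite direction. miR-195-5p ranged from 53.8 to 85.9 CPM (median 69.0) in PC-3 normoxia and from 680 to 1425 CPM (median 1099) in 22Rv1 normoxia. It stood at 0.0626 of the 22Rv1 level (log2 -4.00, SE 0.10, adjusted p = 1.18e-29, edgeR). miR-497-5p, its cluster partner with the same seed, ranged from 74.3 to 113 CPM in PC-3 and from 580 to 1544 CPM in 22Rv1, and was at 0.0809 of the 22Rv1 level (log2 -3.63, SE 0.10, adjusted p = 5.87e-29, edgeR). miR-195-3p, whose seed is that of miR-16-2-3p, was at 1.18 to 6.90 CPM in PC-3 and 110 to 173 CPM in 22Rv1 (log2 -4.97, adjusted p = 7.72e-28, edgeR). Its PC-3 value rests on 3 to 25 counts a library. The ranges of the lines did not overlap for any of these members, a trait whose share over all tested miRNAs was not counted.

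Since miR-195-5p differs from the far more abundant miR-16-5p by 2 bases, its reads were set beside those of miR-16-5p. miR-195-5p counts equalled 0.267 ± 0.0400% of miR-16-5p counts in PC-3 hypoxia and 0.274 ± 0.0381% in PC-3 normoxia, against 2.96 ± 0.361% in 22Rv1 hypoxia and 2.90 ± 0.361% in 22Rv1 normoxia. miR-497-5p, which shares 11 of 21 bases with miR-16-5p, had a line difference of log2 -3.63. Whether sequencing errors in miR-16-5p reads add to the low PC-3 count of miR-195-5p was not tested, and the miR-497-5p value does not decide it.

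The chromosome 3 and 13 clusters differed far less between lines. miR-16-5p was at 0.677 of the 22Rv1 level in PC-3 (log2 -0.56, SE 0.07, adjusted p = 4.33e-09, edgeR), with ranges of 21905 to 28484 CPM in PC-3 and 30819 to 42600 CPM in 22Rv1 that did not overlap. miR-15a-5p was lower in PC-3 by log2 -0.26 (adjusted p = 0.00366, edgeR), at 373 to 511 CPM in PC-3 and 338 to 660 CPM in 22Rv1, ranges that overlapped. Its call was lost when low-count miRNAs were kept (log2 -0.15, adjusted p = 0.117). miR-15b-5p was higher by log2 0.14 (adjusted p = 0.0378, edgeR), and miR-15b-3p by log2 0.17 without passing the test (adjusted p = 0.0768). Both directions hang on the scaling: with library size alone miR-15b-5p was lower in PC-3 by log2 -0.32 (adjusted p = 0.0013) and miR-15b-3p by log2 -0.30 (adjusted p = 0.0125). With the authors' scaling factors miR-15b-3p was called higher (log2 0.23, adjusted p = 0.028), as it was when low-count miRNAs were kept (log2 0.28, adjusted p = 0.00809). Library size alone moved the median of all tested miRNAs to log2 -0.60, against -0.15 with TMM. Relative to that median, miR-15b-5p was higher by 0.28 with library size alone and by 0.30 with TMM. Omitting 1 library ended the miR-15b-5p call in 42 of 47 omissions, with adjusted p from 0.0231 to 0.375, and omitting the 3 libraries that stood apart ended it too (log2 0.06, adjusted p = 0.442). It was also lost without both PC-3 libraries with high stromal markers (log2 0.07, adjusted p = 0.355) and with DESeq2 size factors (adjusted p = 0.0533).

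Unlike miR-16-5p, its passenger arms are each made from 1 locus. How much miR-16-5p each locus made was not tested. miR-16-2-3p, made only from chromosome 3, was at 165 ± 13.1 CPM in PC-3 and 171 ± 15.99 CPM in 22Rv1 (log2 -0.05, 95% interval -0.19 to 0.09, adjusted p = 0.488, edgeR). miR-16-1-3p, made only from chromosome 13, was at 1.05 ± 0.606 CPM in PC-3 and 3.05 ± 1.01 CPM in 22Rv1 (log2 -1.59). It had at most 7 counts a library in PC-3 and 17 in 22Rv1. As it passed the filter within 22Rv1 alone, where it was higher, its call is not used as support. Of the entries made only from chromosome 13, that leaves miR-15a-5p, lower in PC-3 by log2 -0.26 with TMM scaling. Relative to the median of all tested miRNAs it was lower by -0.10, and its call was lost when low-count miRNAs were kept. The entries made only from chromosome 3 lay between log2 -0.05 and 0.17.

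**Figure D2:**
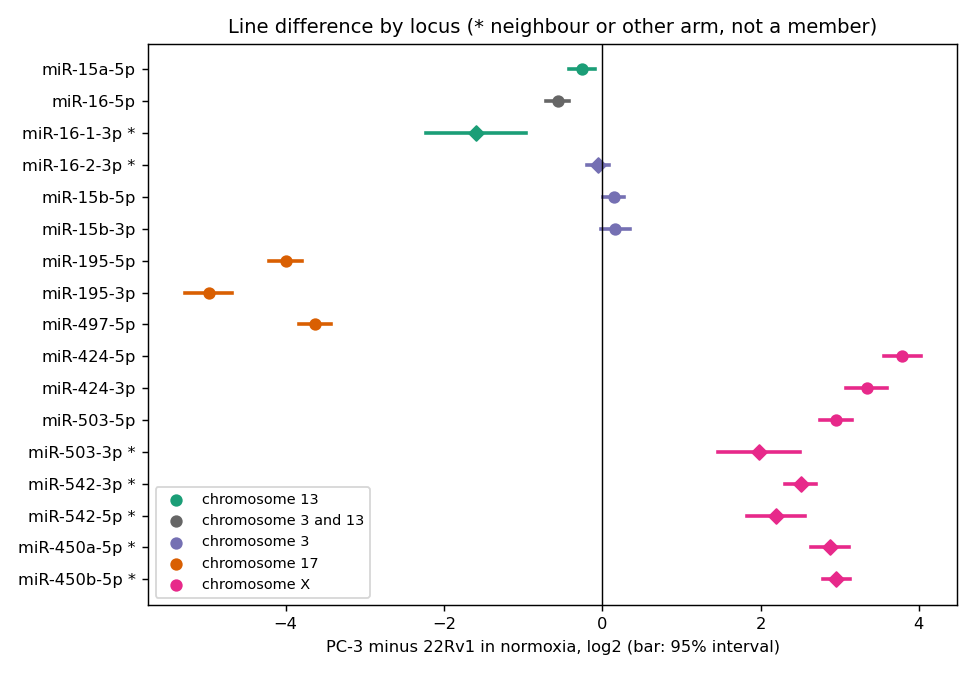
Log2 difference of PC-3 minus 22Rv1 in normoxia for the 10 members (circles) and 7 neighbours or other arms (diamonds, starred), with 95% intervals, coloured by chromosome. Chromosome X entries lie between 1.98 and 3.79, chromosome 17 entries between -4.97 and -3.63, and the chromosome 3 entries miR-16-2-3p, miR-15b-5p and miR-15b-3p close to 0.

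The share of shared-seed reads by locus shows what these differences amount to. The chromosome X member, miR-424-5p, made up 1.37% of the 6-member sum in PC-3 hypoxia and 1.52% in PC-3 normoxia, against 0.0848% in 22Rv1 hypoxia and 0.0722% in 22Rv1 normoxia. The chromosome 17 members, miR-195-5p and miR-497-5p, made up 0.618% in PC-3 hypoxia and 0.611% in PC-3 normoxia, against 5.88% in 22Rv1 hypoxia and 5.57% in 22Rv1 normoxia. The chromosome 3 and 13 members supplied the rest, from 97.4 to 98.4% in PC-3 hypoxia libraries, 97.5 to 98.4% in PC-3 normoxia libraries, 93.0 to 95.2% in 22Rv1 hypoxia libraries and 93.6 to 96.2% in 22Rv1 normoxia libraries.

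The second question was how the family responded to hypoxia in each line, taken first as the mean of the effects at the 6 O2 levels. In PC-3 no member was called, against 11.0% of 463 tested miRNAs (5.83% higher, 5.18% lower; edgeR). DESeq2 called 0 members as well. In edgeR 1 member had an unadjusted p below 0.05, as had 114 of the 463 tested miRNAs. The median log2 effect was -0.02 over the members and 0.00 over all tested, and 8 members had effects between -0.06 and 0.08. miR-16-5p averaged 25997 ± 1780 CPM in hypoxia and 25527 ± 1888 CPM in normoxia (n = 12 each), with a 95% interval for its fold of 0.954 to 1.10. miR-15a-5p averaged 445 ± 37.7 CPM in hypoxia and 444 ± 32.3 CPM in normoxia, with an interval of 0.937 to 1.08. For miR-195-3p, near 4 CPM, the interval was wide, from 0.660 to 1.39.

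The 2 arms of miR-424 had the lowest effects in PC-3. miR-424-3p ranged from 167 to 254 CPM (median 219) in hypoxia and from 184 to 300.2 CPM (median 249.8) in normoxia. Its ranges overlapped, and it was lower in hypoxia in 11 of 12 pairs of the same level and replicate number. The labels do not say that these libraries are pairs. Pair counts, here and below, were not taken over all tested miRNAs, so they do not set members apart. The effect on miR-424-3p was log2 -0.19 (SE 0.07, fold 0.877, adjusted p = 0.1, edgeR), which misses the threshold. It passed with the pairs as a block (log2 -0.19, adjusted p = 0.00109, edgeR). It also passed without hypoxia replicate 2 of the 1% set (adjusted p = 0.032) or of the 2% set (adjusted p = 0.0492). miR-424-5p ranged from 267 to 477 CPM (median 399) in hypoxia and from 338 to 472 CPM (median 425) in normoxia, with both extremes among the hypoxia libraries. It was lower in 11 of 12 pairs as well, by log2 -0.13 (SE 0.07, adjusted p = 0.243, edgeR), and by log2 -0.13 with an adjusted p of 0.018 with the block. With the block 23.5% of tested miRNAs were called in PC-3, against 11.0% without it. Leaving out both PC-3 libraries with high stromal markers changed no member call for the mean effect.

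miR-503-5p, from the same cluster, was at 280 to 397 CPM in hypoxia and 278 to 396 CPM in normoxia in PC-3, nearly the same range (log2 0.01, 95% interval -0.13 to 0.14). The ratio of miR-503-5p to miR-424-5p counts was 89.4 ± 18.0% in hypoxia and 80.1 ± 6.56% in normoxia, a change of log2 0.14 that was not called (adjusted p = 0.341, limma). miR-424-3p counts were 55.9 ± 5.66% of miR-424-5p counts in hypoxia and 58.3 ± 6.06% in normoxia (log2 -0.06, adjusted p = 0.624, limma). The unequal effects within the cluster therefore did not pass the test of the ratio itself. Of the 6 neighbours and other arms tested in PC-3 none was called (edgeR), the lowest adjusted p being 0.147 for miR-503-3p (log2 -0.44), near 6 CPM.

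**Figure D3:**
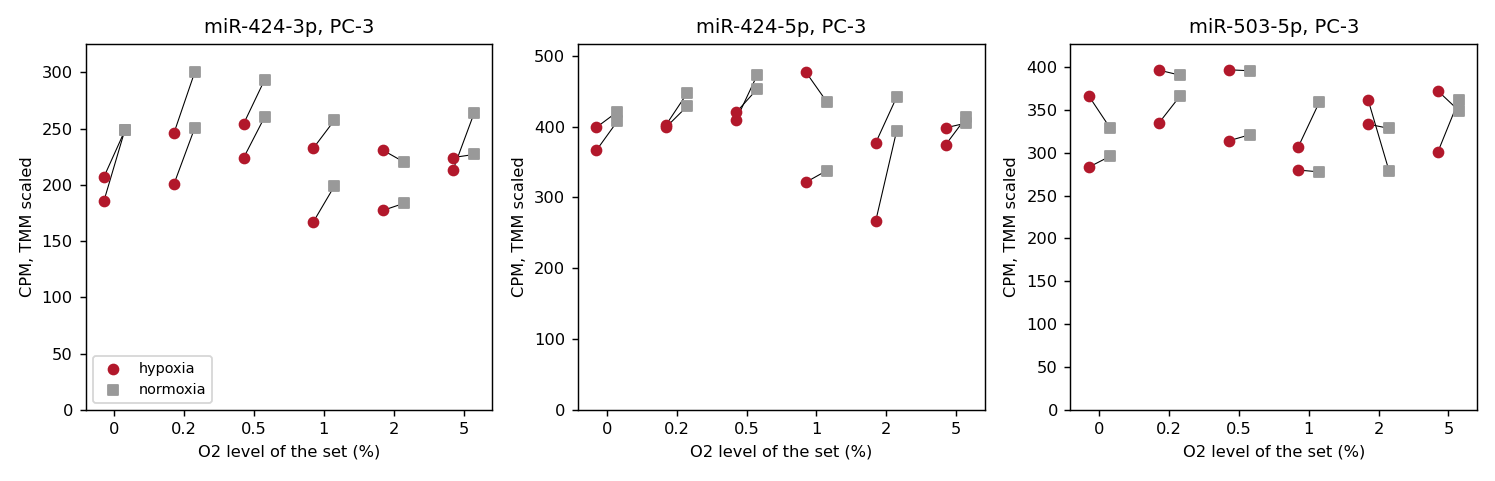
CPM (TMM scaled) of miR-424-3p, miR-424-5p and miR-503-5p in PC-3 by O2 level of the set; red circles are hypoxia, grey squares the normoxia controls of that level, and lines join libraries with the same replicate number. For both miR-424 arms 11 of 12 lines run upward to normoxia, whereas for miR-503-5p hypoxia is the higher of the pair in 7 of 12. Such counts were not taken over all tested miRNAs.

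In 22Rv1 1 of 10 members was called for the mean effect, and it was lower in hypoxia, where 5.98% of 552 tested miRNAs were called lower, 7.61% higher and 13.6% in either direction (edgeR). A share of 1 in 10 is close to that background. The called member was miR-195-3p, the arm that is the less abundant one of its hairpin in these libraries. In hypoxia it ranged from 73.8 to 131 CPM (median 97.3), and in normoxia from 110 to 173 CPM (median 127). Of the 12 hypoxia libraries 11 lay below the lowest normoxia library, and hypoxia was lower in 11 of 11 pairs of the same level and replicate number. The share of all tested miRNAs with such counts was not taken, so the counts do not set miR-195-3p apart.

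At 0% O2 miR-195-3p was at 97.0 and 95.0 CPM in hypoxia against 112 and 110 CPM in normoxia, and at 0.2% at 100.1 and 73.8 CPM in hypoxia against 139 CPM in the single normoxia library. At 0.5% it was at 97.6 and 96.3 CPM in hypoxia against 127 and 128 CPM in normoxia, and at 1% at 92.7 and 91.5 CPM in hypoxia against 117 and 113 CPM in normoxia. At 2% it was at 99.6 and 99.3 CPM in hypoxia against 129 and 110 CPM in normoxia, and at 5% at 131 and 99.2 CPM in hypoxia against 173 and 128 CPM in normoxia. Within every level each hypoxia library was below its own number in normoxia where both were present, and the only hypoxia library inside the normoxia range, replicate 1 of the 5% set, was paired with the highest normoxia library. The mean effect was log2 -0.38 (SE 0.08, 95% interval -0.54 to -0.22, fold 0.767, adjusted p = 0.00138, edgeR). In single levels the estimate ran from log2 -0.65 at 0.2% to -0.21 at 0%, without a call, the lowest adjusted p being 0.202 at 0.5%. The call was kept in all 9 alternatives, with adjusted p from 5.39e-05 to 0.00189, and in the 23 omissions of 1 library, with adjusted p from 0.000366 to 0.00739.

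The dominant arm, miR-195-5p, ranged from 676 to 1484 CPM (median 1003) in 22Rv1 hypoxia and from 680 to 1425 CPM (median 1099) in normoxia. These ranges overlap almost completely, and hypoxia was higher in 6 of 11 pairs (log2 -0.15, 95% interval -0.37 to 0.06, adjusted p = 0.378, edgeR). miR-195-3p counts equalled 10.2 ± 3.14% of miR-195-5p counts in hypoxia (n = 12) and 12.1 ± 4.59% in normoxia (n = 11). The test of this ratio gave log2 -0.22 with an adjusted p of 0.467 (limma), so a difference between the arms in their response was not shown. miR-497-5p averaged 1226 ± 240 CPM in hypoxia and 1240 ± 266 CPM in normoxia, for log2 -0.04 (95% interval -0.27 to 0.19). miR-16-2-3p, which shares the seed and first 8 bases of miR-195-3p, was at 158 ± 15.6 CPM in hypoxia and 171 ± 15.99 CPM in normoxia in 22Rv1 (log2 -0.12, adjusted p = 0.276, edgeR). In PC-3, where miR-195-3p had 2 to 25 counts a library, its effect was log2 -0.06 with a 95% interval from -0.60 to 0.47.

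**Figure D4:**
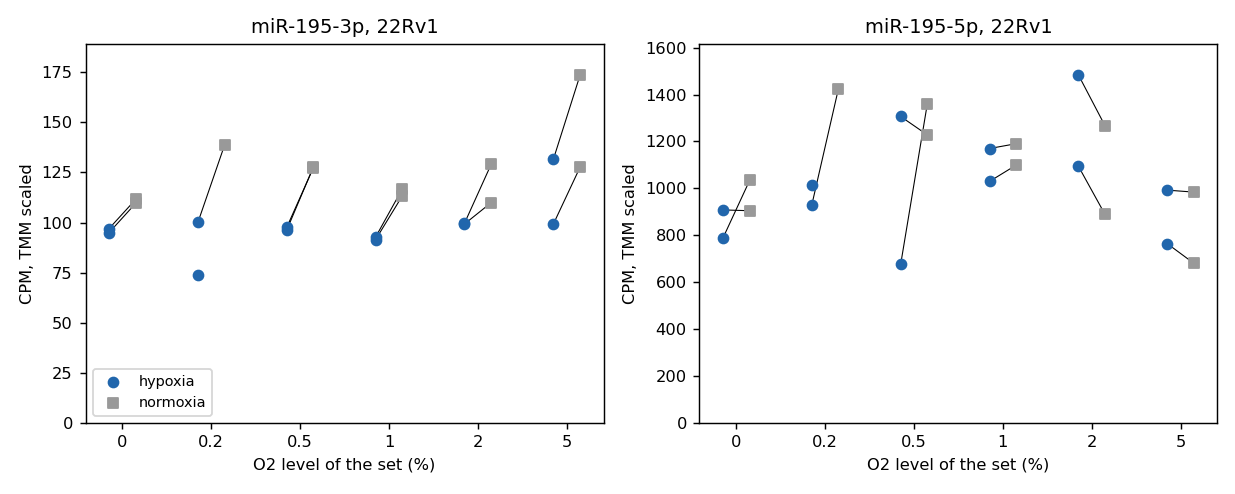
CPM (TMM scaled) of both miR-195 arms in 22Rv1 by O2 level of the set; blue circles are hypoxia, grey squares the normoxia controls of that level, and lines join libraries with the same replicate number (the 0.2% set has 1 control). Every line for miR-195-3p runs upward to normoxia, whereas lines for miR-195-5p run both ways. How many of all tested miRNAs have lines that all run 1 way was not counted.

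The 3 libraries of 22Rv1 that stood apart had low values of several members. In them miR-195-5p was at 676 to 764 CPM against 788 to 1484 CPM in the other 20, miR-497-5p at 580 to 913 CPM against 980 to 1556 CPM, and miR-424-5p at 16.3 to 19.2 CPM against 23.3 to 48.1 CPM. miR-195-3p was not low in them, at 97.6 to 173 CPM against 73.8 to 139 CPM. The 2 of the 5% set were among the shallowest, at 1035470 counts in hypoxia and 960421 in normoxia. The stromal sum was lowest in 1 and highest in the other 2 of these libraries, as given above. The part that depth or stromal RNA plays in these values was not tested. None of the member calls for the mean effect in 22Rv1 changed without the 3 libraries.

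The 2 members made at least in part from chromosome 13, miR-16-5p and miR-15a-5p, had negative effects in 22Rv1 whose calls depended on the pairing. Effects of similar size, not called with or without the block, were those of miR-195-5p (log2 -0.15) and miR-424-3p (log2 -0.16). miR-16-5p averaged 33933 ± 4748 CPM in hypoxia and 37457 ± 3786 CPM in normoxia. Of 12 hypoxia libraries 4 lay below the normoxia minimum and 1 above its maximum, and hypoxia was lower in 8 of 11 pairs. Its effect was log2 -0.17 (SE 0.08, adjusted p = 0.179, edgeR), and log2 -0.19 with the pairs as a block (adjusted p = 0.0221, edgeR). miR-15a-5p averaged 481 ± 85.3 CPM in hypoxia and 526 ± 99.3 CPM in normoxia, with an effect of log2 -0.16 (adjusted p = 0.26, edgeR) that became log2 -0.21 with the block (adjusted p = 0.0322, edgeR). miR-15a-5p counts were 1.42 ± 0.206% of miR-16-5p counts in hypoxia and 1.40 ± 0.158% in normoxia, and the effect on miR-16-5p over miR-15a-5p was log2 -0.01 (95% interval -0.17 to 0.15, limma). With the block 29.7% of tested miRNAs were called in 22Rv1, against 13.6% without it.

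The X-linked members did not pass in 22Rv1, where they are scarce. miR-424-5p averaged 31.8 ± 8.84 CPM in hypoxia and 30.1 ± 5.49 CPM in normoxia (fold 95% interval 0.862 to 1.23), on 15 to 224 counts in hypoxia libraries and 15 to 124 in normoxia libraries. miR-503-5p averaged 44.4 ± 6.95 CPM in hypoxia and 43.1 ± 5.59 CPM in normoxia (0.870 to 1.18). miR-424-3p averaged 22.0 ± 5.05 CPM in hypoxia and 24.6 ± 6.43 CPM in normoxia (0.724 to 1.11). The 2 miR-15b arms lay at log2 -0.09 (5p) and -0.03 (3p), both uncalled. Over all 10 members the median effect in 22Rv1 was log2 -0.12, with 8 negative and 2 positive, against 0.01 over all tested miRNAs. Of all 552 tested miRNAs 284 had positive effects. An unadjusted p below 0.05 (edgeR) was reached by 2 members and by 152 of the 552. DESeq2 called 1 member, again miR-195-3p.

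**Figure D5:**
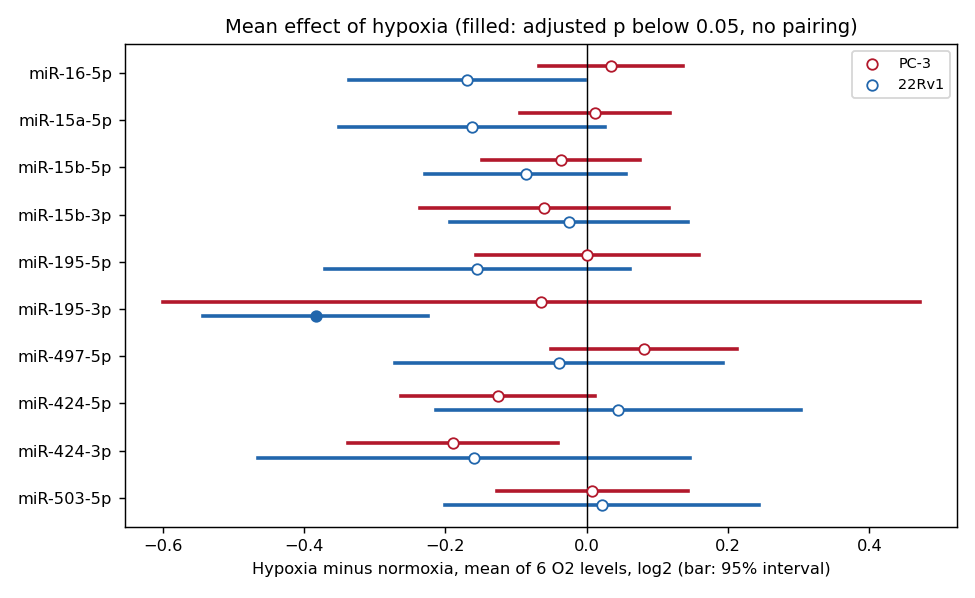
Mean effect of hypoxia over the 6 O2 levels (log2, hypoxia minus normoxia) for each member in PC-3 (red, upper) and 22Rv1 (blue, lower), with 95% intervals; filled points passed the adjusted p threshold without pairing. The only filled point is miR-195-3p in 22Rv1 at -0.38, and the interval of miR-424-3p in PC-3 (-0.34 to -0.04) also lies below 0 but misses the adjusted threshold.

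At single O2 levels no member was called in either line by edgeR or DESeq2. Of all tested miRNAs in PC-3, 2.81% were called at 0%, 1.51% at 0.2%, 0.864% at 0.5%, 0.648% at 1%, 0.648% at 2% and 0% at 5% O2. In 22Rv1 4.71% were called at 0%, 0.906% at 0.2%, 3.08% at 0.5%, 0.725% at 1%, 0.362% at 2% and 0% at 5% O2. An unadjusted p below 0.05 (edgeR) was reached by 4 members at 2% O2 in PC-3, against 67 of all 463 tested miRNAs. In 22Rv1 it was reached by 1 member at 0.2% (38 of all 552 tested miRNAs) and 2 at 0.5% (107 of 552). At 5% in 22Rv1 it was reached by 1 member (19 of 552), and at the other levels by none. The 4 members at 2% in PC-3 were both arms of miR-15b and miR-424-5p, with negative effects, and miR-497-5p, with a positive one. miR-497-5p was at 119.6 and 112 CPM in hypoxia against 74.3 and 107 CPM in normoxia (log2 0.34, adjusted p = 0.318, edgeR), and at log2 0.08 without normoxia replicate 1. miR-15b-3p was at 90.0 and 114 CPM in hypoxia against 150 and 131 CPM in normoxia (log2 -0.49, adjusted p = 0.296, edgeR). miR-15b-5p was at 1108 and 1292 CPM in hypoxia against 1704 and 1472 CPM in normoxia (log2 -0.43, adjusted p = 0.114, and 0.00685 with the block, edgeR). The 2 groups did not overlap, a trait not counted over all tested miRNAs, and the next lowest estimate for miR-15b-5p in PC-3 was log2 -0.08 at 0%. miR-424-5p at 2% was at 267 and 377 CPM in hypoxia against 394 and 442 CPM in normoxia (log2 -0.40, adjusted p = 0.295, and 0.0098 with the block, edgeR). Without the block, omission of 1 library moved it between log2 -0.67, without hypoxia replicate 2, and -0.18, without hypoxia replicate 1 (adjusted p = 0.782). With the block 6.26% of tested miRNAs were called at 2% and 7.99% at 0%. miR-424-3p passed with the block at 0% only (log2 -0.32, adjusted p = 0.0484, edgeR), at 207 and 186 CPM in hypoxia against 248 and 249 CPM in normoxia.

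In 22Rv1 the lowest single-level adjusted p was that of miR-15a-5p at 0.5% O2. It was at 321 and 506 CPM in hypoxia against 659.5 and 625 CPM in normoxia (log2 -0.67, adjusted p = 0.0999, and 0.00444 with the block, edgeR). The 321 CPM came from 1 of the 3 libraries that stood apart. Without that library the effect shrank to log2 -0.40 (adjusted p = 0.723), and without all 3 it was log2 -0.44 (adjusted p = 0.417, edgeR). Without the other hypoxia library, which leaves only the one that stood apart, it was log2 -0.93 (adjusted p = 0.0422, edgeR). With the block miR-497-5p (log2 -0.54, adjusted p = 0.0167) and miR-195-3p (log2 -0.42, adjusted p = 0.0474) also passed at 0.5% (edgeR), where 19.4% of tested miRNAs were called with the block. miR-497-5p was at 801 CPM in the hypoxia library that stood apart and 1423 CPM in the other, against 1544 and 1517 CPM in normoxia. Its effect without the block was log2 -0.50 (adjusted p = 0.295), and log2 -0.16 once the library that stood apart was left out (adjusted p = 0.882, edgeR). Of the 12 single-level comparisons, those at 0 and 2% in PC-3 and at 0.5% in 22Rv1 held a member called with the block.

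No member had a trend over the ordered O2 levels in either line. The trend, in log2 per step toward lower O2, called 0.216% of miRNAs in PC-3 and 0.181% in 22Rv1 (edgeR). The lowest adjusted p of a member was 0.786 (edgeR), with no unadjusted p below 0.05 and no member called by DESeq2. Of all tested miRNAs 17 in PC-3 and 38 in 22Rv1 had an unadjusted p below 0.05 for the trend (edgeR). For miR-195-3p in 22Rv1 the slope was 0.00 ± 0.04 (SE) a step, and for miR-424-3p in PC-3 -0.05 ± 0.04. No member was called for a difference between the normoxia control sets of the 6 levels (0% of miRNAs called in both lines by edgeR, unadjusted p of the members from 0.119 to 0.893 in PC-3 and 0.192 to 0.926 in 22Rv1).

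The mean effect of hypoxia was then compared between lines, as PC-3 minus 22Rv1. No member was called, against 2.94% of 613 tested miRNAs (edgeR). No member had an unadjusted p below 0.05, against 93 of the 613 tested miRNAs (edgeR), and DESeq2 called no member. For miR-16-5p the effects were log2 0.03 in PC-3 and -0.17 in 22Rv1, a difference of 0.18 (95% interval -0.02 to 0.38, adjusted p = 0.41, and 0.0461 with the block, edgeR, which called 9.95% of miRNAs). For miR-424-5p they were -0.13 in PC-3 and 0.04 in 22Rv1, a difference of -0.19 (95% interval -0.46 to 0.09). For miR-195-3p they were -0.06 in PC-3 and -0.38 in 22Rv1, a difference of 0.30 (95% interval -0.19 to 0.80), so its fall was not shown to be particular to 22Rv1.

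Arm and cluster ratios were tested with limma on log2 ratios of counts, and 0 of 7 member ratios was called in either line, against 12.1% of 124 ratios in PC-3 and 8.39% of those in 22Rv1. None of the 7 had an unadjusted p below 0.05 in either line. A further arm ratio, miR-503-3p over the member miR-503-5p, was tested in PC-3 and is named because of its value: it was lower in hypoxia by log2 -0.45 (95% interval -0.78 to -0.11, unadjusted p = 0.0111 by limma) without passing adjustment (adjusted p = 0.0741), on 5 to 26 counts of miR-503-3p in hypoxia and 8 to 24 in normoxia. miR-15b-3p counts equalled 8.65 ± 0.570% of miR-15b-5p counts in PC-3 hypoxia and 8.76 ± 0.838% in PC-3 normoxia, and 9.09 ± 1.19% in 22Rv1 hypoxia and 8.76 ± 1.19% in 22Rv1 normoxia. This arm ratio was nearly the same in all 4 groups. For miR-195 the 3p arm was 5.92 ± 3.32% of the 5p arm in PC-3 hypoxia and 5.91 ± 2.60% in PC-3 normoxia, below the 22Rv1 values above, and for miR-424 it was 78.0 ± 41.1% in 22Rv1 hypoxia and 87.9 ± 44.9% in 22Rv1 normoxia, with a spread too wide to order it against PC-3. miR-497-5p counts exceeded those of miR-195-5p on average in all groups, with ratios of 112 to 193% in PC-3 hypoxia and 115 to 177% in PC-3 normoxia, and 105 to 135% in 22Rv1 hypoxia and 85.3 to 131% in 22Rv1 normoxia. The differences in these ratios between lines were not tested.

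As a description of how members varied together, Spearman correlations of log2 CPM were taken over the libraries of a line, which share depth, scaling and O2 treatment. Over the 23 libraries of 22Rv1, miR-195-5p went with miR-16-5p (0.86), miR-497-5p (0.84) and miR-15a-5p (0.77). All are 5p members with the shared seed, and miR-497-5p comes from the same cluster. The remaining members with that seed, miR-15b-5p (0.43) and miR-424-5p (0.35), had lower correlations with miR-195-5p. miR-195-5p did not go with its own other arm, miR-195-3p (0.10). The 23 include the 3 libraries that stood apart, which were low in miR-195-5p and miR-497-5p but not in miR-195-3p. Correlations without those libraries were not taken. Over the 24 libraries of PC-3 the closest were the arms of miR-15b (0.78) and of miR-424 (0.74), and miR-15a-5p and miR-16-5p followed at 0.62. The arms of miR-195 were at -0.19 in PC-3, where miR-195-3p had few counts. In 22Rv1 the arms of miR-15b were at 0.31 and those of miR-424 at -0.31. In PC-3 miR-16-5p and miR-195-5p were at -0.08. miR-424-3p ran against miR-16-5p in PC-3 (-0.61).

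Among tested miRNAs outside the family, those most like miR-16-5p were let-7b-5p (0.66), miR-340-5p (0.65) and miR-491-5p (0.63) in PC-3, and miR-137 (0.68), miR-17-5p (0.68) and miR-1307-5p (0.67) in 22Rv1. For miR-15b-5p they were miR-26a-2-3p (0.72), miR-31-3p (0.67) and miR-340-5p (0.66) in PC-3, and miR-548e-5p (0.64), miR-450b-5p (0.58) and miR-103a-3p (0.58) in 22Rv1. For miR-15a-5p in PC-3 they were let-7b-5p (0.65), miR-196b-5p (0.64) and miR-345-5p (0.63). miR-497-5p in 22Rv1 had the closest companions of any member taken, miR-29c-3p (0.87), miR-33a-5p (0.80) and miR-194-5p (0.79). These are the 3 highest coefficients of each member, out of 453 tested miRNAs outside the family in PC-3 and 542 in 22Rv1. The 22Rv1 values are over libraries that include the 3 that stood apart.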

How the data were processed

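Small RNA libraries (TruSeq Small RNA, gel-selected) were made from total RNA, per the labels' protocols. The authors deposited raw counts for 1006 mature miRNA entries in 47 libraries, and a table of CPM. As checked on the files, each CPM column is the counts times 1 constant (relative difference at most 2.6e-09), with TMM-type factors of 1.01 to 1.95. The submitters' processing notes name FastQC and hg19. For the aligner, the counting tool and the sharing of reads that match several hairpins, the methods were not given in the sources used here, and the last bears on near-identical members.

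Counts were fitted with edgeR 4.0.16 in R 4.3.3. A miRNA was tested when 2 or more libraries reached 5 CPM, which left 463 for PC-3, 552 for 22Rv1 and 613 for both lines. TMM set the library scaling, and the robust quasi-likelihood model held 1 mean per group. Tests were two-sided and adjusted by Benjamini-Hochberg over all tested miRNAs, not over the members. The single normoxia library of the 0.2% set of 22Rv1 is assumed to vary like other groups. Hypoxia fits were made within each line and CPM are scaled over all libraries. Ratios were tested with limma 3.58.1 on log2 ratios with 0.5 added to each count. Confidence intervals are 95%, and cover the spread between libraries. The fits were tested on simulated data first.

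Replicate numbers come from the labels, which do not say that they pair samples. The deviations of same-numbered hypoxia and normoxia libraries correlated at 0.301 to 0.665 in PC-3 (6 levels) and 0.113 to 0.397 in 22Rv1 (5 levels), so they were treated as pairs in the blocked fit. Over the miRNAs tested in both lines together the lowest value was 0.0958 (22Rv1, 0.5% set), just under the 0.1 needed, so pairing is less sure in 22Rv1.

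Replicates differed by more than counting error (chi-square per degree of freedom at least 22.8). Alternatives were DESeq2 1.42.0, other scalings, filters and dispersion settings, the block, omission of each library, of the PC-3 libraries with high stromal miRNAs, and, chosen after seeing the data, of the 3 22Rv1 libraries that stood apart. All 10 members are named. Neighbours are named if called or at 20 CPM on average, and likeness is given for the 3 most abundant members per line with their 3 closest miRNAs. The members, lists and tests were chosen with earlier results of these data known.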

Additional observations from a re-analysis of the deposited data

How the results depend on the processing

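Of 1700 member values under the alternatives other than single omissions, 1679 kept their side of the threshold and, where called, their direction, 5 lost and 14 gained a call, and 2 reversed: with library size alone, miR-15b-5p (log2 -0.32) and miR-15b-3p (log2 -0.30) in normoxia. The replicate block moved counts most, and the cause was not tested. It gave 109 called miRNAs against 51 for the PC-3 mean effect (2 members), 164 against 75 for the 22Rv1 mean effect (3 members), 61 against 18 for the difference between lines (1 member) and 21 against 12 for the 22Rv1 ratios, and called 1 member at 0% and 2 at 2% O2 in PC-3 and 3 at 0.5% in 22Rv1. Library size alone gave 46 for the 22Rv1 mean effect and 7 for the difference between lines, the 1 CPM filter gave 4 of 250 ratios in 22Rv1, and omission of the 3 22Rv1 libraries gave 9 for the difference between lines.

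With 1 library left out, calls ran from 41 to 63 for the PC-3 mean effect (members 0 to 1), 51 to 103 for 22Rv1 (members 1 to 1), 9 to 37 for the difference between lines (lowest without PC-3 normoxia replicate 1 of the 2% set, highest without 22Rv1 hypoxia replicate 2 of the 0.2% set; members 0 to 0), 512 to 534 in normoxia (members 8 to 10), 14 to 18 for PC-3 ratios and 4 to 14 for 22Rv1 ratios. The control sets gave 0 to 1 in PC-3 and 0 to 2 in 22Rv1, the 0.5% level of 22Rv1 0 to 1 members, and the other levels and the trends 0 members. Depth was lowest for miR-195-3p in PC-3, at 2 to 25 counts a library, where the 95% interval of the mean effect ran from log2 -0.60 to 0.47.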
